A study of Mus musculus with 6 samples.

Results

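The genes described here encode ubiquitin ligases, their substrate receptors and scaffolds, and deubiquitinases. They were chosen by symbol: the RNF, TRIM, F-box (Fbxl, Fbxo, Fbxw), cullin, KLHL, USP, OTUD, HERC, HECT, NEDD4, ASB, ZNRF and SIAH families, without the interferon-induced Usp18. A symbol is not proof of activity, and several RNF, TRIM and KLHL genes so chosen have no established ligase or receptor function. The deposited table of 7340 genes held 113 of them. The mouse annotation GENCODE M21 has 373 protein-coding genes with such symbols, and the other 260 were not analysed here. Every listed gene has an unadjusted p-value below 0.05 in the authors' own comparison, so all shares below are of a table already chosen for change. Of the 113 genes, 111 passed the filter on low counts and were tested. The exceptions, Trim54 and Fbxo48, had few reads: 7.57, 4.55 and 5.75 normalised reads in the control libraries and 0, 1.07 and 0 in the treated ones for Trim54, and 4.73, 19.1 and 7.67 against 2.05, 0 and 4.25 for Fbxo48.

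The data were bulk RNA-seq of 6 wild-type mouse kidney samples. The control group, IRI, was 3 kidneys after ischemia-reperfusion injury, in which renal blood flow is stopped for a time and let back in. The second group, IRI with MK-8617, was 3 kidneys after the same injury with MK-8617, a small molecule that blocks the prolyl hydroxylases, the enzymes whose mark sends hypoxia-inducible factor (HIF) to destruction. Both groups carry the injury and none is uninjured, so each difference below is between treated and untreated injured kidneys. The labels give no strain, age, sex, dose or route, a 1d tag stands in the column names of the table, and the title of every treated sample names MK8617 while the treatment entries of treated replicates 2 and 3 read MK8618 and MK8619. Nothing in the labels says that the 3 samples of a group are separate animals, and the p-values therefore rest on sample-to-sample spread that could be technical only. The libraries held 16835541 to 19508497 reads assigned to genes, and 3 reads correspond to 0.154 to 0.178 CPM, reads scaled to a common library size. In whole-kidney RNA, fewer cells of a type and less RNA per cell cannot be told apart.

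Ubiquitin is attached to a protein by a chain of an activating enzyme, a conjugating enzyme and a ligase. The ligase selects the substrate. RING ligases, which include most RNF and TRIM proteins, bring the charged conjugating enzyme to the substrate, whereas HECT ligases first take the ubiquitin onto their own cysteine. Cullin-RING ligases are assembled on a cullin scaffold that holds a small RING protein, Rbx1 or Rnf7, at one end and an exchangeable substrate receptor at the other. F-box proteins are receptors for Cul1, KLHL proteins for Cul3, and the VHL and ASB receptors are held by elongins B and C on Cul2 or Cul5. Attachment of the ubiquitin-like protein Nedd8 switches the cullin on, and the COP9 signalosome removes it. Deubiquitinases of the USP and OTUD families cut ubiquitin off again. In the kidney, the Cul2 complex with VHL destroys prolyl-hydroxylated HIF-alpha subunits, and Nedd4l with deubiquitinases such as Usp2 sets how long the epithelial sodium channel stays at the cell surface.

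Promoter sequence was examined because HIF binds a short core, ACGTG or GCGTG. Windows ran from 250 bases before to 50 bases after the first RefSeq start of each gene in GRCm38.p6. Both strands were searched, so the palindrome CACGTG counts as 2 matches. A start was found for 86 members, of which 55 (64.0%) held at least 1 match, against 43.8% of all 27025 promoters of this length. The median GC content of the members' windows was 60%, and that of all promoters was 52.7%. A match was present in 66.7% of 45 members that rose (exact 95% interval 51.0% to 80.0%) and in 76.5% of 17 that fell (50.1% to 93.2%). With the 250 bases before the start alone, the order was reversed, at 64.4% and 58.8%. The 4 windows below show members of both directions with large changes. Trim67 and Rnf186 rose and hold no match, whereas Usp31 rose and Usp20 fell with 5 matches each. Capitals mark the matches on either strand, and overlapping matches run together. A match is a description of the letters and not a binding site.
Trim67, chr8:124792769-124793068, plus strand: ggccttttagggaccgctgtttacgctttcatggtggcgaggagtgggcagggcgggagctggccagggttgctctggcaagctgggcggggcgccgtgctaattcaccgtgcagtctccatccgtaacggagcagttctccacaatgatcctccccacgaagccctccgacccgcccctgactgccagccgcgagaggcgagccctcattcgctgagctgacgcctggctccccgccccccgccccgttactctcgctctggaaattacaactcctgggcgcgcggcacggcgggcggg
Rnf186, chr4:138966869-138967168, plus strand: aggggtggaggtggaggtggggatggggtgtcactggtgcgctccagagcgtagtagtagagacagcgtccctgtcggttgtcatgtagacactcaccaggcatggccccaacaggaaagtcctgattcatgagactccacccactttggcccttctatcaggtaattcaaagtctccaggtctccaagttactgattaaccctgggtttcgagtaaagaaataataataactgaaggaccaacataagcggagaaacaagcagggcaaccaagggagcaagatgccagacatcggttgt
Usp31, chr7:121707393-121707692, minus strand: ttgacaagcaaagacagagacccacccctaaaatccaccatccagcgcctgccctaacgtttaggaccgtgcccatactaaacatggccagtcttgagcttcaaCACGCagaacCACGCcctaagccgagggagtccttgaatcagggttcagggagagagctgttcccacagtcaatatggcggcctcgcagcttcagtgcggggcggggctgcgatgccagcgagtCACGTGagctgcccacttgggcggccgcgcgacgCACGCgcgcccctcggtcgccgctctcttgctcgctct
Usp20, chr2:30982029-30982328, plus strand: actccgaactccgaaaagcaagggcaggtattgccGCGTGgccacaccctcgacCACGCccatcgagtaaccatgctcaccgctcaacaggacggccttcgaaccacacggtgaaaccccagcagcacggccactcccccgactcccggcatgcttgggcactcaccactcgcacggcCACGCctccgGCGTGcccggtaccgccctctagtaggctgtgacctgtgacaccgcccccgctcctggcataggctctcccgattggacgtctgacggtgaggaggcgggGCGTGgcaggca

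With MK-8617, more ubiquitin genes rose than fell, while the table as a whole was weighted the other way. Of the 111 tested members, 64 rose and 22 fell (limma on log2 of the normalised read count plus 1, Benjamini-Hochberg adjusted p below 0.05), and 25 did not pass. That is 57.7% higher and 19.8% lower. Among all 6961 tested genes 74.3% passed, 35.7% higher and 38.7% lower. The median log2 fold change was 0.44 over the members and -0.31 over all tested genes. All 3 treated kidneys lay above all 3 controls for 78 members and below them for 25, where the share over all genes was 44.8% above, 47.6% below and 92.5% in either direction. Relative to the mean of the controls, the median member stood at -0.01, -0.04 and 0.05 on the log2 scale in the IRI libraries and at 0.42, 0.37 and 0.45 in the treated ones, so no single treated library set the shift. The median gene of the whole table stood at -0.24, -0.26 and -0.25 in the treated libraries. Markers of several kidney cell types moved in the same libraries. Of 3 listed proximal tubule markers 2 rose (Slc22a8 by 1.85 and Miox by 1.18), with a summed level of 278 to 516 CPM in the controls and 899 to 1087 in the treated kidneys. All 4 listed fibroblast and pericyte markers fell, among them Col1a1 (-2.17) and Acta2 (-2.04), from 988 to 1781 CPM down to 282 to 361. Thick ascending limb and distal tubule markers were split, with Slc12a1 (-1.70) and Kcnj1 (-0.76) lower, Pvalb (2.65) higher and 2 not past the threshold. Both listed podocyte markers rose, Wt1 by 0.91 and Nphs1 by 0.42. The part of cell composition in the members' shift was not tested.

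Of the 25 members that did not pass, 16 had a fold change above 0 and 9 below, with adjusted p from 0.0502 to 0.173. An adjusted p below 0.05 is given for 91 members in the authors' deposited table, among them 84 of the 86 called here. The others of the 91 are Trim63, Asb2, Fbxo5, Fbxo40, Klhl21, Rnf181 and Usp27x. Changes were mostly small. Of the 64 members that rose, 59 did so by less than 1 on the log2 scale and 21 by less than 0.5, with a median of 0.55. The 22 that fell had a median of -0.81. The members' counts were tight, with a median coefficient of variation of 9.49% among the IRI and 8.83% among the treated libraries, against 12.4% and 11.4% over all tested genes. Member transcripts were also longer, with a median of 4042 bases against 2755, and across the table the genes that rose were longer (median 3467 bases) than those that fell (2001 bases). When smooth trends with transcript length and GC content were removed from the fold changes, 36 members were higher (32.4%) and 22 lower (19.8%), against 25.5% and 35% of all genes. The members' median then fell to 0.25, and that of all genes moved from -0.31 to -0.13. Of the calls in the original fit, 54 held, 35 higher and 19 lower. Leaving out the first treated library left 47 members called, 36 higher and 11 lower.

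**Figure D1:**
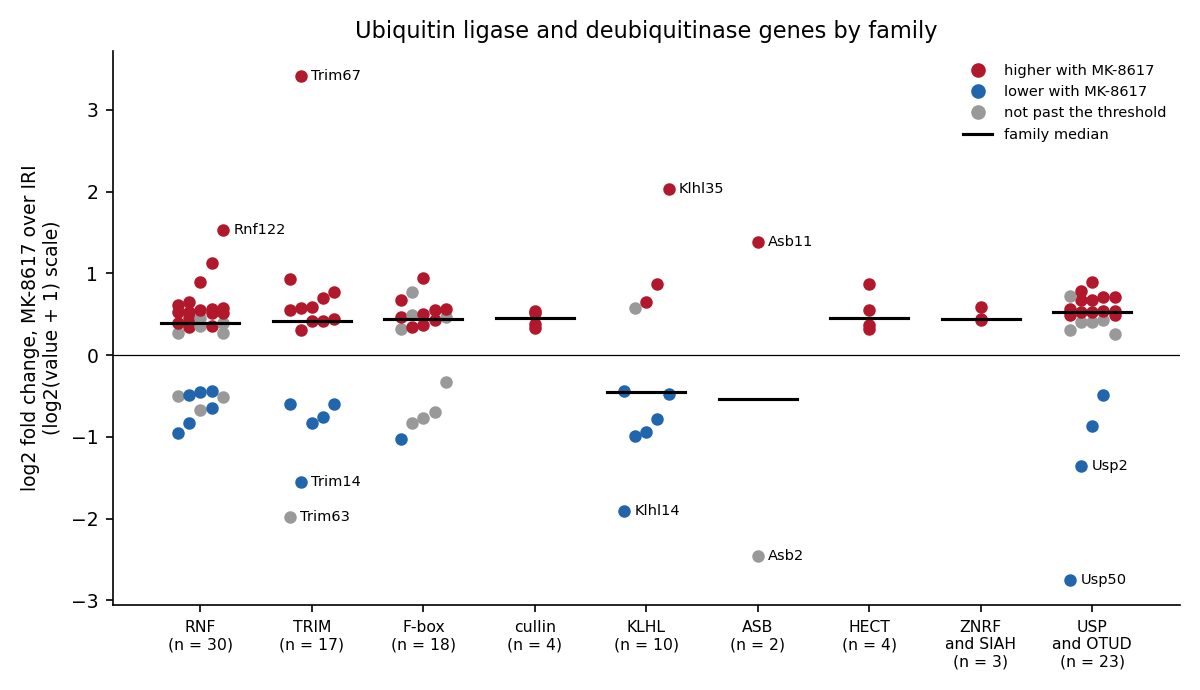
Log2 fold change (IRI with MK-8617 over IRI, log2 of value plus 1) of each of the 111 tested members by family, 1 point a gene, coloured by the adjusted p of 0.05, with a bar at the family median. Points lie mostly just above 0 in every family but KLHL, whose median is -0.46, and ASB, which has 2 genes.

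Trim67, a brain-enriched TRIM protein best known for its role in neurite growth, had the largest rise of any member. It read 5.68, 0.911 and 3.83 normalised reads in the IRI kidneys and 48.2, 28.8 and 50 in the treated ones. Each treated kidney was thus several times above the highest control. The log2 fold change was 3.41 ± 0.54 (SE, n = 3 per group; limma adjusted p = 0.00235), and it passed in every alternative setting that tested it. The setting that requires a mean of 5 CPM left it out. The level stayed very low. The groups held 11 and 121 reads in all, a ratio of 12.3 with a counting interval of 6.65 to 25.4 (exact, 95%, counting error only). Per transcript length this was 0.0224 FPKM, a read count scaled by library size and transcript length, rising to 0.269. The gene (ENSMUSG00000036913) lies at chr8:124793092-124834713 on the plus strand of GRCm38. Klhl35 shared this pattern at low counts: it read 2.84, 2.73 and 3.83 in the controls and 13.3, 27.7 and 10.6 in the treated kidneys (2.04 ± 0.51, limma adjusted p = 0.017). Leaving out treated replicate 2, or removing both trends, ended the call. The gene lay under the 1 CPM required of the other genes named and was chosen after its values were seen.

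Ligases held in membranes rose more often than they fell, as the members did as a whole. Of 13 such RING genes tested, 8 rose, 2 fell and 3 did not pass. Over all tested members 57.7% rose and 19.8% fell, and over all tested genes 35.7% and 38.7%. The largest rise was that of Rnf122, a RING ligase of the endoplasmic reticulum (chr8:31111820-31131482). It had 78.6, 72.9 and 75.7 normalised reads in the controls and 191, 232 and 240 in the treated kidneys (1.53 ± 0.18, limma adjusted p = 0.000659). Rnf186, a single-exon endoplasmic reticulum ligase of gut and kidney epithelium (chr4:138967112-138968360), went from 242, 214 and 218 to 446, 545 and 489 (1.13 ± 0.13, limma adjusted p = 0.000621). The groups of both genes did not overlap, which was required of genes named for a large change. Rnf103, another endoplasmic reticulum ligase, read 552, 573 and 652 in the controls and 1194, 953 and 1170 with MK-8617 (0.90 ± 0.12, limma adjusted p = 0.0012). Smaller rises were seen for Rnf19a, Rnf145, Rnf139, Rnf167 and Rnf13. Rnf13 and Rnf167 each lost the call in 5 or more settings.

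Rnf183, a membrane RING ligase known from the renal collecting duct, went against this group. It read 671, 643 and 1017 in the IRI kidneys and 422, 372 and 380 in the treated ones (-0.96 ± 0.17, limma adjusted p = 0.00427). Even the lowest control was above the highest treated value, a separation required of genes named for a large change. Of 7 collecting duct markers 3 were listed: Atp6v1g3 and Slc4a1 fell, and Slc26a4 did not pass. The call of Slc4a1 was lost without treated replicate 3. Aqp2, Aqp3, Scnn1b and Scnn1g were not listed, so the collecting duct as a whole was not covered. The summed level of the 3 listed markers was 137 to 159 CPM in the controls and 64.3 to 86.1 in the treated kidneys. Whether this had a part in the fall of Rnf183 was not tested. Rnf5, which acts in endoplasmic reticulum quality control, was also lower (-0.65 ± 0.16, limma adjusted p = 0.0148). That call was lost with either of treated replicates 1 and 2 left out and with the length trend removed.

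**Figure D2:**
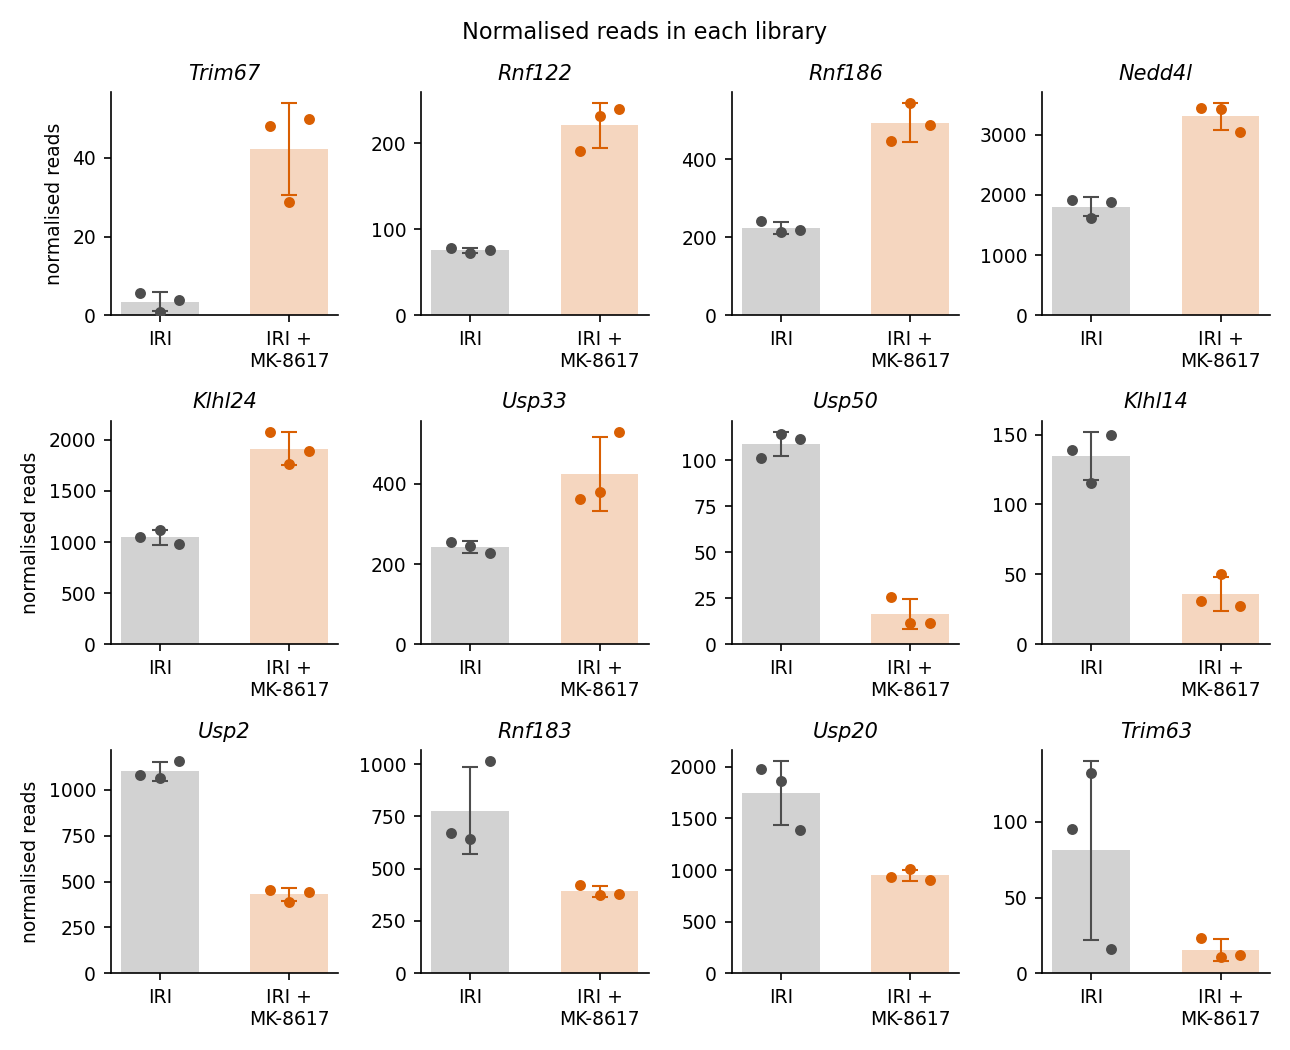
Normalised reads in each library for 12 members: points are the 3 libraries of a group, bars the group mean and error bars the SD. In 11 panels the groups do not overlap, which was so for 92.5% of all tested genes and was required of genes named for a large change. Trim63 overlaps because IRI replicate 3 read 16.3 against 95.6 and 132 in the other controls.

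The listed cullin scaffolds rose while many of the listed proteins that work with them fell. Cul3, Cul4a, Cul7 and Cul9 were not listed, so the cullins as a class were not covered. Over all tested genes 74.3% passed and 35.7% were higher. All 4 listed cullins passed: Cul4b (0.54 ± 0.11), Cul1 (0.52 ± 0.09), Cul5 (0.38 ± 0.09) and Cul2 (0.33 ± 0.11). Their limma adjusted p-values were 0.00622, 0.00308, 0.0151 and 0.0477. Cul1, the scaffold of the F-box ligases, read 1518, 1588 and 1646 in the controls and 2225, 2269 and 2311 with MK-8617, and its call held in every setting tried. Cul5 read 641, 642 and 639 against 821, 819 and 863, the tightest control values of the 4. Its fold change became -0.04 when the length and GC trends were removed. Cul2, the scaffold used by VHL, read 740, 633 and 623 against 798, 839 and 872, and its call was lost in 11 of 20 alternative settings, with 0.03 after removal of both trends. Cul4b also lost its call there (0.29).

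From a longer list of cullin-RING machinery 15 partners were listed, of which 8 fell, 2 rose and 5 did not pass. Over all tested genes 38.7% fell and 35.7% rose. Others of that list, among them Cand1, Ddb1, Keap1 and Cops5, were not listed, so the counts cover only part of the machinery. The median log2 fold change of the 15 was -0.63, against -0.31 for all tested genes. Nedd8, the cullin activator, read 2171, 2395 and 2240 in the controls and 1283, 1131 and 998 in the treated kidneys (-1.0). Rbx1, the RING subunit of most cullins, read 2195, 2312 and 2584 against 1533, 1448 and 1371 (-0.70). Neither gene's groups overlapped, as was so for 92.5% of all tested genes. Rnf7, the RING subunit of Cul5 ligases and itself a member, read 1390, 1497 and 1621 against 1198, 1125 and 998 (-0.44 ± 0.11, limma adjusted p = 0.0155). That call was lost without treated replicate 3 and with the length trend removed. The COP9 signalosome subunits Cops9 (-2.02), Cops6 (-0.85) and Cops4 (-0.32) fell, although the call of Cops4 was lost by edgeR with TMM (adjusted p = 0.0641), by DESeq2 (adjusted p = 0.165) and in most fits that left out 1 library. Also lower were elongin B (Elob, -0.77), elongin C (Eloc, -0.62) and the Nedd8-conjugating enzyme Ube2m (-0.63). Vhl itself rose by 0.49, from 449, 370 and 418 to 576, 560 and 591, and so did Nae1, a subunit of the Nedd8-activating enzyme (0.43). The call of Vhl was lost without treated replicate 1. Most of these partners are short, with a median transcript of 1808 bases. With the length and GC trends removed, Rbx1 (-0.66), Cops9 (-1.49), Cops6 (-0.82), Ube2m (-0.65), Eloc (-0.89) and Nedd8 (-0.49) were still below 0, whereas Elob was at -0.06 (limma adjusted p = 1). Nae1 then missed the threshold (0.30, limma adjusted p = 0.0531).

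**Figure D3:**
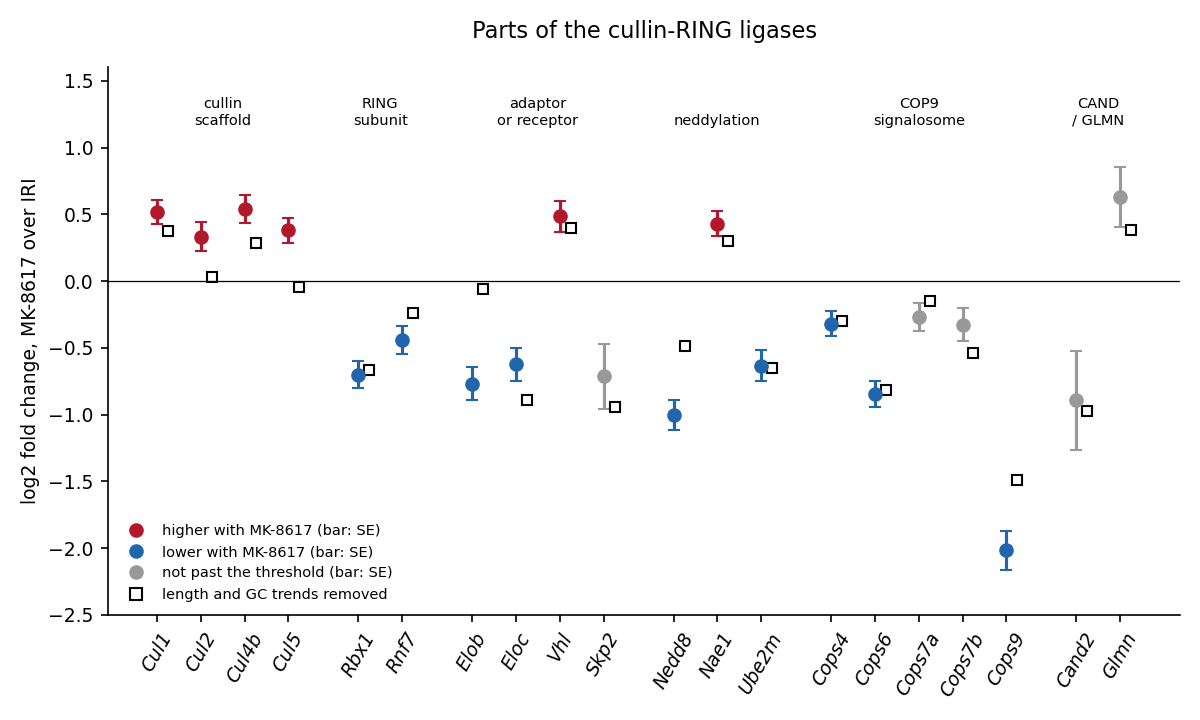
Log2 fold change with SE (IRI with MK-8617 over IRI) of 4 cullins, Rnf7 and the 15 listed partners, by their place in the complex; open squares give the value after removal of the length and GC trends. The cullins lie above 0 and most partners below, and the squares of Cul2, Cul5 and Elob lie near 0.

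Members known to act on HIF or its hydroxylases moved in both directions. Usp20 and Usp33 are related deubiquitinases that both bind VHL, and Usp20 is known to stabilise HIF-1 alpha. Usp20 (chr2:30982279-31023586) fell from 1985, 1866 and 1393 to 931, 1009 and 903 normalised reads (-0.87 ± 0.14, limma adjusted p = 0.00237). Usp33 rose from 256, 244 and 227 to 363, 380 and 531 (0.79 ± 0.17, limma adjusted p = 0.0085), with treated replicate 3 well above the other two. Siah1a, a RING ligase of the prolyl hydroxylases, read 340, 341 and 482 in the controls and 579, 554 and 586 in the treated kidneys (0.58 ± 0.15, limma adjusted p = 0.0204). Otud7b, a deubiquitinase of HIF and of NF-kappaB signalling, read 1235, 1166 and 1457 against 1940, 1524 and 2140 (0.53 ± 0.14, limma adjusted p = 0.0241). Both calls were lost in 4 or more of the fits that left out 1 library. Usp7, Usp19 and Usp28 did not pass, with 0.26 ± 0.09, 0.31 ± 0.11 and 0.40 ± 0.17 (limma adjusted p = 0.0582, 0.0623 and 0.122).

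The pair that sets sodium channel turnover moved apart. Nedd4l, the HECT ligase that removes the epithelial sodium channel from the cell surface, read 1908, 1618 and 1886 in the IRI kidneys and 3452, 3424 and 3040 in the treated ones. The treated kidneys were all above the controls, as for 44.8% of all tested genes. The log2 fold change of Nedd4l was 0.88 ± 0.11 (limma adjusted p = 0.000725). Usp2, a clock-controlled deubiquitinase that counteracts it on that channel (chr9:44067021-44095627), read 1079, 1067 and 1160 against 454, 391 and 446. At -1.36 ± 0.11 (limma adjusted p = 9.48e-05) it had the smallest adjusted p of any member. Both calls held in every alternative setting. Expressed per length, mean Nedd4l went from 7.06 to 12.8 FPKM and mean Usp2 from 12.9 to 4.96. Usp2 has several isoforms that a gene-level count cannot separate. Of the other HECT members, Herc4 rose by 0.36 and Hectd3 by 0.32, and these lost the call in 6 and 8 settings.

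Deubiquitinases included the member with the lowest fold change of all. Usp50, a USP protein thought to lack catalytic activity, read 101, 114 and 111 normalised reads in the controls and 25.6, 11.7 and 11.7 in the treated kidneys (-2.75 ± 0.35, limma adjusted p = 0.000826). Of the 23 USP and OTUD genes, 13 rose, 4 fell (Usp50, Usp2, Usp20 and Usp5) and 6 did not pass, with a median of 0.53. The share that rose was near that of all tested members, 57.7% higher and 19.8% lower. Over all tested genes it was 35.7% and 38.7%. Otud4, Otud7b, Usp25, Usp34, Usp42, Usp53, Usp54 and Usp9x lost the call with the length and GC trends removed. Usp5, which recycles free ubiquitin chains, read 2568, 2404 and 2725 against 1928, 1666 and 1912 (-0.48 ± 0.10, limma adjusted p = 0.00839). Usp31 read 265, 274 and 331 against 556, 475 and 581 (0.89 ± 0.14, limma adjusted p = 0.00216). Usp22, the deubiquitinase of the SAGA chromatin complex, rose from 1364, 1157 and 1647 to 2093, 2138 and 2521 (0.71 ± 0.14, limma adjusted p = 0.00649). Many genes of a group acting in immune signalling, among them Otud5, Usp4 and Trim8, were not listed. All 5 listed members of that group rose: Otud1 (0.68), Otud4 (0.54), Usp25 (0.54), Otud7b (0.53) and Rnf31 (0.52), the catalytic subunit of the linear ubiquitin ligase. Of these, the call of Rnf31 alone held in every setting. In the small ZNRF and SIAH family all 3 listed genes rose, while others such as Siah2 and Znrf3 were not listed. Among the 3, Znrf2, a membrane-associated RING ligase, went from 1925, 1779 and 1597 to 2430, 2218 and 2492 (0.43 ± 0.11, limma adjusted p = 0.0153). Its call was lost without treated replicate 1 or 3 and with the length trend removed.

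Interferon-linked ligases did not move one way. Of 19 in that list 5 were in the table. Trim14, an adaptor of antiviral signalling, fell from 40.7, 48.3 and 41.2 to 14.3, 8.54 and 22.3 (-1.56 ± 0.39, limma adjusted p = 0.0175). Its call was lost without treated replicate 1, and 31.3% of its exonic bases are shared with Nans on the opposite strand. The kit is not described as strand-specific, so those reads cannot be told apart. Trim56, which acts on nucleic acid sensing, was lower (-0.60 ± 0.13, limma adjusted p = 0.0106), as was Rnf213, a very large ATPase ligase (-0.45 ± 0.13, limma adjusted p = 0.0289, lost in 6 settings). Trim25, the RIG-I ligase, was higher (0.58 ± 0.12, limma adjusted p = 0.00779). Rnf135 did not pass (-0.50, limma adjusted p = 0.115). Macrophage markers were lower in the same libraries, 5 of the 7 tested, with a summed level of 143 to 293 CPM in the controls and 61.5 to 80.3 in the treated kidneys. Their part in these falls was not tested.

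TRIM genes mostly rose, at a share not far from that of all tested members (57.7% higher, 19.8% lower). Over all tested genes it was 35.7% and 38.7%. Of all 17 tested, 11 rose, 5 fell (Trim14, Trim35, Trim2, Trim56 and Trim47) and Trim63 did not pass. The rises of Trim13, Trim23, Trim24, Trim28 and Trim33 each lost the call in several settings. Trim7, which binds glycogenin, read 1467, 1585 and 1030 against 2948, 2371 and 2369 (0.93 ± 0.17, limma adjusted p = 0.00409). Trim39 read 773, 762 and 1051 against 1599, 1377 and 1415 (0.78 ± 0.14, limma adjusted p = 0.00392). In both genes IRI replicate 3 differed from the other controls, in opposite directions, without reaching the treated range. Trim35 read 962, 1127 and 1335 against 652, 541 and 726 (-0.83 ± 0.15, limma adjusted p = 0.00419). Trim2, a ligase of neurofilament light chain, read 800, 822 and 953 against 466, 477 and 578 (-0.76 ± 0.12, limma adjusted p = 0.00267). Trim47, the most abundant TRIM transcript per length in the controls, went from 56.4 to 36.7 FPKM (-0.59 ± 0.11, limma adjusted p = 0.00428).

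KLHL was the one larger family with more falls than rises, although its 10 tested genes do not allow more than a description. Of these, 6 fell, 3 rose and 1 did not pass, with a median of -0.46. Falls were common in the table, at 38.7% of all tested genes against 35.7% that rose. Klhl14 fell most, from 139, 116 and 150 to 30.7, 50.2 and 27.6 (-1.91 ± 0.28, limma adjusted p = 0.0017). Klhl36 read 307, 288 and 226 against 143, 188 and 144 (-0.79 ± 0.19, limma adjusted p = 0.0136) and lost its call when any of 3 libraries was left out. The calls of Klhl32 (-0.99 ± 0.32) and Klhl23 (-0.94 ± 0.30) were lost in 8 and 9 settings. Klhl24, the Cul3 receptor for keratin 14, rose from 1046, 1119 and 976 to 2081, 1761 and 1896 (0.87 ± 0.10, limma adjusted p = 0.000659). F-box genes were split between 9 that rose, Fbxl22 that fell and 8 that did not pass. Among all tested members 57.7% rose and 19.8% fell. Fbxl12, a receptor for Cul1, read 191, 200 and 237 against 419, 410 and 379 (0.94 ± 0.14, limma adjusted p = 0.00167), and 37.1% of its exonic bases are shared with Ubl5 on the opposite strand. Fbxl22 (-1.02 ± 0.30) lost its call in 6 settings, and Rnf26 (-0.83 ± 0.27), with 56.6% of its exonic bases shared with Gm49380, in 12.

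Some muscle ligases varied widely among the controls. Of 7 listed genes of a muscle and atrophy group, Asb11 and Trim32 rose, 4 did not pass and Trim54 was not tested. Trim63, the muscle atrophy ligase MuRF1, read 95.6, 132 and 16.3 in the IRI kidneys and 23.6, 10.7 and 11.7 in the treated ones. Asb2 read 49.2, 41.9 and 9.59 against 13.3, 8.54 and 0. For both, IRI replicate 3 fell in the treated range, so the groups overlapped, and neither passed (-1.98 ± 0.71 and -2.46 ± 1.00, limma adjusted p = 0.0685 and 0.105). In the authors' own comparison both were lower, at -2.41 and -2.20 (authors' adjusted p = 0.000654 and 0.0284). Of 6 skeletal muscle markers Acta1 alone is in the table, at 0.428, 0.308 and 0.0537 CPM in the controls and 0, 0 and 0.0594 in the treated kidneys. IRI replicate 3 was thus the lowest control for Acta1, Trim63 and Asb2, although Acta1 there lay under 0.161 CPM, the level of 3 reads. In the same muscle group, Fbxo40 was also lowest in IRI replicate 3, whereas Trim54 and Asb11 were not. The part of muscle RNA in these values was not tested. Asb11, a Cul5 receptor, went the other way, from 17.0, 24.6 and 17.3 to 66.6, 55.5 and 38.3 (1.38 ± 0.33, limma adjusted p = 0.0147). Its call was lost without treated replicate 1 or 2. Trim32, mutated in a limb-girdle muscular dystrophy, rose by 0.70 ± 0.12 (limma adjusted p = 0.00297).

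Few members tied to the cell cycle were listed, 3 of 20. Fbxo5, the mitotic inhibitor of the anaphase-promoting complex, read 102, 185 and 81.5 against 61.5, 83.2 and 52.1 and did not pass (-0.83 ± 0.33, limma adjusted p = 0.096). IRI replicate 2 was the highest library for this gene and for the proliferation markers, which summed to 186, 458 and 208 CPM in the IRI kidneys and 99.0, 101 and 102 in the treated ones. Of those 7 markers 6 were lower. Their part in the values of Fbxo5 was not tested.

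Levels per length spanned a wide range. In the controls Rnf181 stood highest at 77.8 FPKM, followed by Rnf7 (63.7), Trim47 (56.4), Rnf11 (42.5) and Trim28 (35.4). In the treated kidneys the order was Rnf11 (57.3), Rnf181 (51.6), Rnf7 (46.3), Trim28 (43.1) and Trim47 (36.7). Rnf11 rose (0.45 ± 0.09, limma adjusted p = 0.00792), except with the length and GC trends removed. Rnf181 read 3959, 5294 and 2610 against 2685, 2845 and 2444, so its groups overlapped and it did not pass (-0.52 ± 0.22, limma adjusted p = 0.122). In the controls 15 members lay under 1 FPKM, 36 between 1 and 5, 49 between 5 and 20, and 13 at 20 or more. The median over all 113 went from 5.64 to 6.83 FPKM.

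**Figure D4:**
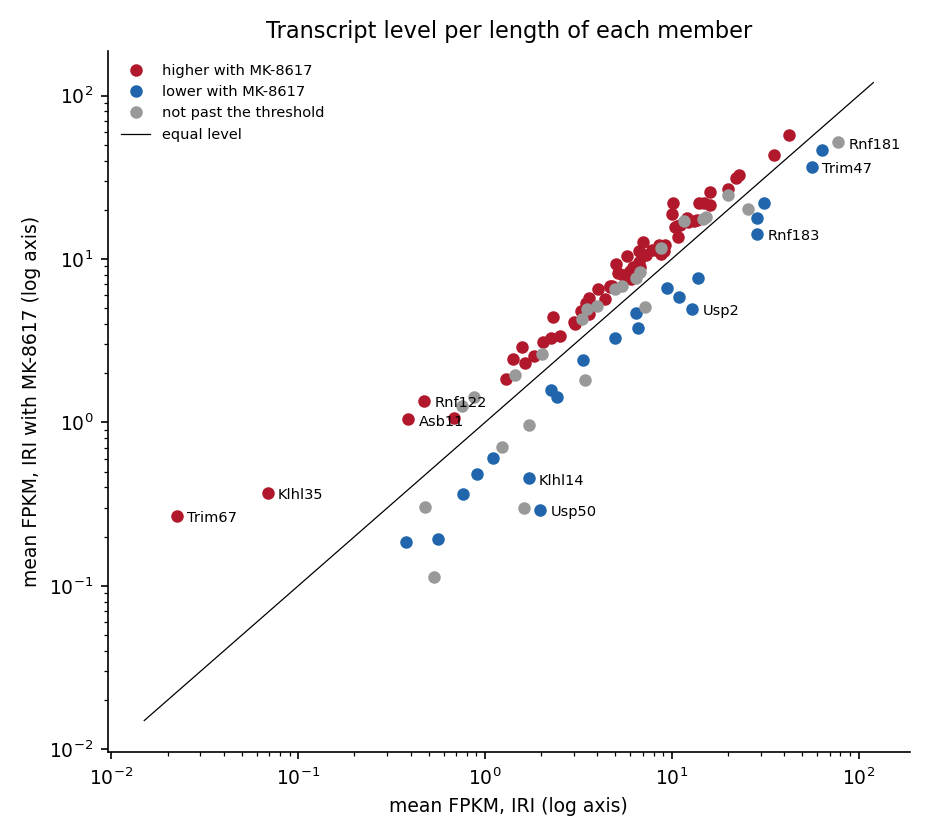
Mean FPKM of each member in IRI (x, log axis) and in IRI with MK-8617 (y, log axis), coloured by the test. Most points run in a narrow band just above the line of equal level, and Trim67 and Klhl35 sit far above it at the low end.

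Removing the length and GC trends moved members by different amounts. Klhl35 went from 2.04 to 1.55 and lost its call, Rnf186 went from 1.13 to 1.46, and Rnf31 stayed close, at 0.52 before and 0.50 after. Rnf122, Rnf186 and Usp2 were past the threshold under all 20 alternatives, and Trim67, Usp50 and Klhl14 under all but the filter at a mean of 5 CPM, which left them untested. Klhl24 went from 0.87 to 0.53 and Nedd4l from 0.88 to 0.65, both still past it. Only Cul5, Rnf138 and Trim23 changed sign, at -0.04, -0.02 and -0.01. In all, 37 of the 86 calls, 27 higher and 10 lower, were lost in no setting that tested them. Of these, 34 were tested in every setting, 26 higher and 8 lower. The filter at 5 CPM left 10 called members untested.

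**Figure D5:**
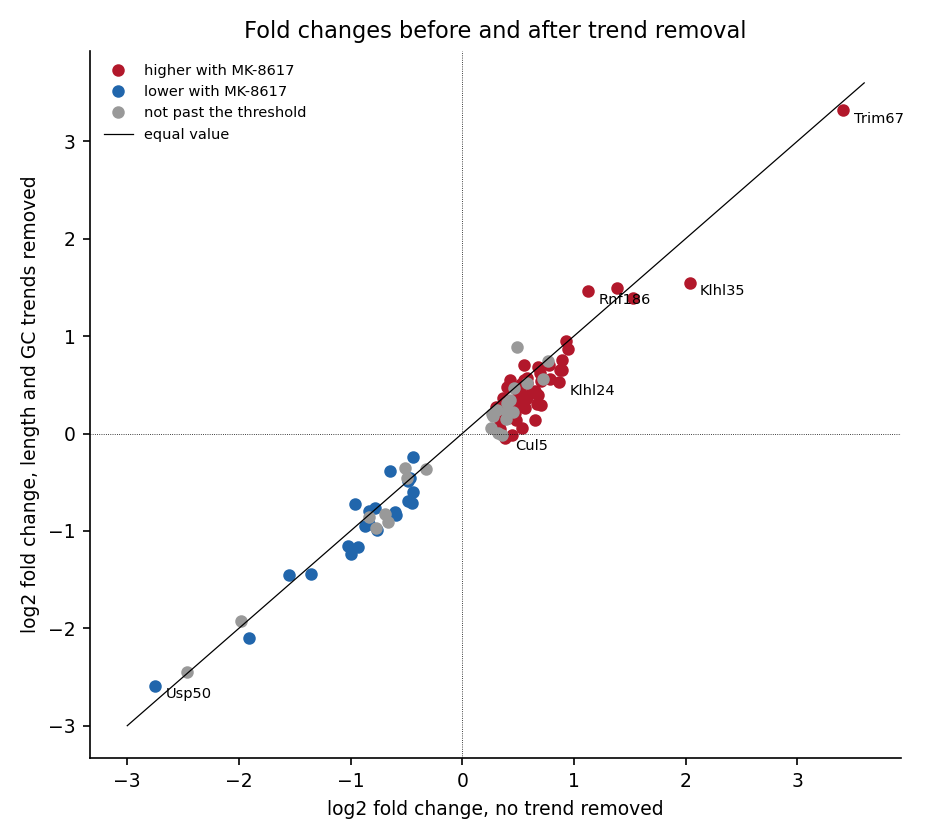
Log2 fold change of each tested member as fitted (x) and after removal of the length and GC trends (y), coloured by the original call. Trim67 and Usp50 lie near the line of equal value, Klhl35 below it and Rnf186 above it, and Cul5 reaches -0.04.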

How the data were processed

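RNA of 6 mouse kidneys (3 IRI, 3 IRI with MK-8617) was extracted with TRIzol and made into NEBNext Ultra libraries, per the labels' protocols. The submitters' processing notes list DESeq2 1.20.0, featureCounts 1.5.0-p3, HISAT2 2.0.5, CASAVA 1.8 and fastp, with no order, and human builds, although 7338 of the 7340 gene IDs match the mouse annotation of GRCm38. The authors deposited 1 table holding, per library, a normalised count (a scaled signal), for IRI replicate 3 also a raw count, FPKM, and their own log2 fold change and p-value per gene. Every listed gene has an authors' p of at most 0.0499, so genes of the 11560 outside the table were not analysed here. Recovered whole reads (100% of values within 0.001 of a whole number) equalled the deposited raw counts of that library in 7340 of 7340 genes. Library totals, which agree for at least 95.06% of genes, came from those reads and the deposited FPKM, and the listed genes hold 51.7% to 57.4% of them. The table has 13 unnamed empty columns.

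Because the deposited counts are scaled, the test was limma 3.58.1 (R 4.3.3, trend and robust options) on log2 of the normalised value plus a pseudocount of 1. The filter was edgeR's filterByExpr on recovered reads, which kept 6961 genes and left out 379. Fold changes on this scale understate those of low genes. Benjamini-Hochberg adjustment ran over 18811 genes, the number the authors adjusted over as worked out from their p-values, with unlisted genes counted as not significant, and the threshold was 0.05. Simulated data with known fold changes were used to test the fit. Alternatives were edgeR 4.0.16 and DESeq2 1.42.0 on the recovered reads, limma-voom, other pseudocounts, scalings, filters and adjustments, leaving out each library, a replicate block, and removal of smooth trends with transcript length and GC content (mgcv). The edgeR fit with the deposited size factors was chosen after seeing the data. Replicates differed by more than counting noise, so none was a duplicate.

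Genes were named by rule: up to 12 with the largest change per direction at a mean of 1 CPM or more without overlap between groups, Trim67, the member with the smallest adjusted p per family and direction, and members with known roles in HIF turnover or renal transport and the cullins. Other members named, such as Trim63, Usp22 or Trim56, illustrate role groups or levels and were chosen after their values were seen. Members and gene lists were chosen with earlier results of these data known. FPKM served only to compare levels between genes. Promoters came from RefSeq (GRCm38.p6) and gene coordinates from GENCODE M21.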

Additional observations from a re-analysis of the deposited data

How the results depend on the processing

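The excess of rises over falls among the members kept its direction under all 20 alternatives. The median log2 fold change of the members, 0.44 as reported, was 0.50 by edgeR with TMM, 0.52 by DESeq2, 0.50 by limma-voom, 0.27 after the length trend and 0.25 after both trends (length and GC) were taken out, and 0.42 to 0.47 with 1 library left out. The 64 higher members became 36 without both trends, and the 22 lower became 14 at a mean of at least 5 CPM, where 7 of the 22 were not tested. DESeq2 called 78 higher and 16 lower, edgeR with TMM 74 and 19, limma-voom 76 and 17, edgeR with the deposited size factors 63 and 22, and the fit scaled to library totals 61 and 23. The matching shares over all genes are not given here, so these counts describe the members alone. Leaving out 1 library gave 47 to 89 members called, 36 to 63 higher and 11 to 26 lower, and over all genes 3464 to 5195 called, 1510 to 2479 higher and 1954 to 2716 lower. The members called were 47 without treated replicate 1, 54 without IRI replicate 1 and 56 without treated replicate 3. Cul5 changed direction, to -0.041, without both trends, and the cause was not tested. With the replicate number as a block, 85 members were called, 62 higher and 23 lower. Same-numbered libraries correlated at 0.021, 0.116 and 0.115 in their deviations, so the numbers were not taken to pair the samples, although each library correlated best with its own number. At 3 reads or fewer in a library a level cannot be told from 0.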

Other observations

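Ubiquitin genes outside the symbol families were looked up in lists chosen with earlier results of these data known. Beside all counts of this section, 35.7% of all tested genes rose and 38.7% fell. Among the tested members 57.7% rose and 19.8% fell. Among 8 listed HECT and RBR ligases of other names, 5 rose, none fell and 3 did not pass, with a median log2 fold change of 0.37. Itch rose by 0.46, Arih1, which works with neddylated cullins, by 0.41, and Ube3a by 0.40 (limma adjusted p = 0.00546, 0.0252 and 0.0107). All 5 rises lost the call once the length trend was removed, and Ube3a was at -0.12 once both the length and GC trends were. Of 21 other RING ligases 11 rose, 6 fell and 4 did not pass. Mdm4, the partner of Mdm2 in restraining p53, read 1139, 1192 and 1064 normalised reads in the IRI kidneys and 1901, 2228 and 1707 with MK-8617 (0.77, limma adjusted p = 0.00185). Cblb, a ligase that dampens receptor signalling, read 310, 286 and 352 against 581, 538 and 641 (0.89, limma adjusted p = 0.00154). Both genes were higher in 3 of 3 treated kidneys than in any control, as were 44.8% of all tested genes.

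The largest change among them was that of Uhrf1, the RING protein that maintains DNA methylation during replication. It read 1014, 2295 and 1211 in the IRI kidneys and 99.4, 106 and 108 in the treated ones (-3.74 ± 0.26, limma adjusted p = 6.5e-05). Bard1, the partner of Brca1, read 53.9, 148 and 48.9 against 18.4, 39.5 and 10.6 (-1.82 ± 0.55, limma adjusted p = 0.0364), and its call was lost in 5 settings. For both genes IRI replicate 2 was the highest library, as it was for the summed proliferation markers, 458 CPM against 186 and 208 in the other controls. The part of those cells in these values was not tested. Of 6 other deubiquitinases, Atxn3 (0.60) and Mysm1 (0.49) rose, Uchl5, which sits on the proteasome, fell (-0.50), and 3 did not pass. Atxn3 lost its call with both trends removed (0.25, limma adjusted p = 0.125), as did Mysm1 (0.10, limma adjusted p = 0.989), and Uchl5 lost it without treated replicate 1.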
